A study of Mus musculus with 14 samples.

Results

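This report compares gene expression in FAK-WT tumorspheres with that in the parental KMF tumorspheres, and asks what remains different after focal adhesion kinase (FAK) has been put back into a FAK-deficient clone. KMF cells are ID8-IP mouse ovarian cancer cells, recovered from C57Bl/6 mice, with gains that include Myc and the FAK gene Ptk2. FAK-WT cells were made from KT13, a single FAK KO clone of KMF cells cut by CRISPR/Cas9 in exon 4 of Ptk2, into which murine GFP-FAK was introduced by lentivirus with puromycin selection and flow enrichment. All lines were grown for 5 days as tumorspheres, which are clusters in suspension, in serum-free medium. The comparison used 3 FAK-WT and 3 KMF samples of the 14 in the series and all 35275 genes in the deposited table, of which 11847 had a mean above 1 FPKM (fragments per kilobase of gene, scaled to the size of the library) in at least 1 of the 2 groups and were tested. The 3 FAK KO samples were the reference for where each gene stood before re-expression, and the 2 samples with kinase-inactive GFP-FAK (FAK-R454) and the 3 with active β-catenin (β-catenin ΔGSK), also made from KT13, are quoted where they bear on a gene. Because FAK-WT cells descend from 1 clone, passed through 2 rounds of selection and carry a GFP fusion driven by a CMV promoter, the effects of the clone, the selection and the fusion cannot be told apart here. The KMF samples came from various passages, and nothing in the labels says that the FAK-WT samples were separate cultures, so p-values measure the spread between these samples, which may be technical.

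FAK is a cytoplasmic tyrosine kinase that binds at integrin adhesions, phosphorylates itself and recruits Src-family kinases, and it also acts as a scaffold independently of its kinase activity. In ovarian cancer it is known for its links to matrix adhesion, survival in suspension and β-catenin signaling. A rescue line is usually read against its knockout. Setting it against the parental cells shows the other side, namely which transcripts are left at the knockout level, which return part of the way and which end beyond the parental level.

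Fragments on genes, recovered from FPKM and gene length, numbered 26844067 to 35289859 a library. In both lines sample 3 stood apart. A chi-square per degree of freedom over genes was 4.92 between KMF samples 1 and 2 and 26.2 and 31.9 between sample 3 and these, and 3.33 between FAK-WT samples 1 and 2 and 46.8 and 33.6 between sample 3 and these. FAK-WT sample 3 differed by 1 or more on the log2 scale from the mean of the other 2 in 55 genes with a mean above 3 FPKM. Of 16 leukocyte markers 15 were below 1 FPKM in all 6 samples, with Ptprc, Cd3e and Ms4a1 among those at 0, and the summed level was 3.09 to 3.93 FPKM in KMF and 7.0 to 12.5 FPKM in FAK-WT samples, mostly from Cd68. Of 14 endothelial and erythroid markers 12 were below 1 FPKM, with Kdr, Cldn5 and Hba-a2 among those at 0, and the sum was 29.8 to 30.2 FPKM in KMF and 17.8 to 19 FPKM in FAK-WT samples. The 20 mesothelial and ovarian surface markers summed to 1496 to 1562 FPKM in KMF and 1838 to 2178 FPKM in FAK-WT samples. Of these, 12 were tested and none was called different. The samples are whole cultures, so fewer cells of a kind and less RNA per cell cannot be told apart, and the part of these markers in the results was not tested.

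Ptk2 (ENSMUSG00000022607, chromosome 15, 73205105 to 73423191, minus strand) was 24.8, 24.2 and 23.9 FPKM in the KMF samples, 20.4, 17.6 and 18.9 FPKM in the FAK KO samples and 42.3, 42.5 and 45.4 FPKM in the FAK-WT samples. All FAK-WT values lay above all KMF values (log2 difference 0.83, SE 0.05, limma adjusted p = 5.35e-05, where SE is the standard error of the log2 difference). The mRNA thus stood 1.78-fold above the parental level on this scale, although fragments from the cut alleles and from the GFP-FAK insert are counted together in this number. Genes of chromosome 15 lay 0.27 higher on the log2 scale than those of other chromosomes in FAK-WT against KMF. The part of that shift in the Ptk2 value was not tested.

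Between FAK-WT and KMF cells, 702 genes were called different, which is 5.93% of those tested. A call required an adjusted p under 0.05 from limma (Benjamini-Hochberg over all genes tested), a log2 difference of 1 or more, and a mean above 1 FPKM where the gene was higher. Of these, 452 were higher in FAK-WT cells (3.82% of genes tested) and 250 were lower (2.11%). At any fold, 2151 genes were higher (18.2%) and 2783 lower (23.5%), and the median of all tested genes was -0.04 on the log2 scale. The median called difference was 1.52 for higher and -1.41 for lower genes, and 362 of the 702 lay between 1 and 1.5 in size. Differences of 8-fold or more were found in 43 higher and 15 lower genes. The 3 FAK-WT values lay apart from the 3 KMF values in 699 of the 702 called genes, as they did in 55.5% of all genes tested. Protein-coding genes made up 650 of the calls, non-coding RNAs 43 and pseudogenes 9. Without sample 3 of either line 465 genes were called higher and 263 lower, 416 and 222 of them among the calls above. Every difference given here was taken after adding 0.1 FPKM, so for a gene near 0 it is smaller than the true ratio. Of the 177 genes described by rule, 53 overlap another gene of the table, and the library kit does not mark strand, so their fragments may include those of the other gene.

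**Figure D1:**
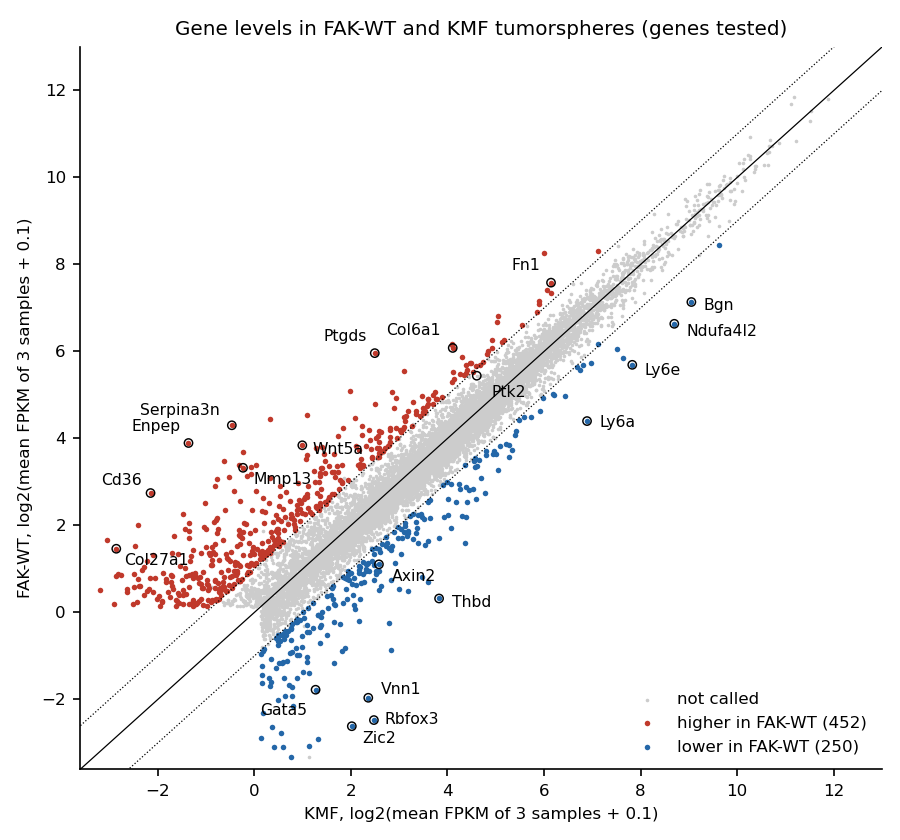
Mean level of each tested gene in KMF (x axis) and FAK-WT (y axis) tumorspheres, as log2(mean FPKM + 0.1) of 3 samples each; red points were called higher in FAK-WT (452), blue points lower (250), grey points were not called, the solid line marks equal levels and the dotted lines a log2 difference of 1. Enpep, Cd36 and Serpina3n lie far above the line, Rbfox3, Zic2 and Vnn1 far below it, and Ptk2 lies just inside the upper dotted line.

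Called genes were sorted by where the FAK KO samples stood, as a description with no test, since these comparisons share samples. Genes that differed in FAK KO but were no longer called in FAK-WT are not among the 702. The shares below therefore divide the remaining differences and do not measure how much re-expression restored. In 354 genes (50.4% of the 702; 219 higher, 135 lower) FAK KO already differed from KMF by 1 or more on the log2 scale and FAK-WT stayed within 1 of FAK KO. These are called not restored. Another 57 genes (8.12%; 26 higher, 31 lower) were partly restored, that is FAK-WT had moved back by 1 or more without reaching the parental level. In 30 genes (4.27%; 28 higher, 2 lower) FAK-WT had moved 1 or more farther from KMF than FAK KO. For 254 genes (36.2%; 175 higher, 79 lower) FAK KO lay within 1 of KMF, and these are called new in FAK-WT, with respect to FAK KO alone. Of the 175 higher ones 94 lay 1 or more above KMF in FAK-R454 as well and 58 in β-catenin ΔGSK cells, and of the 79 lower ones 31 and 38 lay as far below it. In 7 genes (0.997%; 4 higher, 3 lower) the knockout differed by 1 or more one way and FAK-WT by 1 or more the other way, and these are called overshot. The classes depend on a cutoff of 1, and the new genes had a median FAK KO minus KMF difference of 0.44 among higher and -0.58 among lower genes, so many of them had already shifted the same way.

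**Figure D2:**
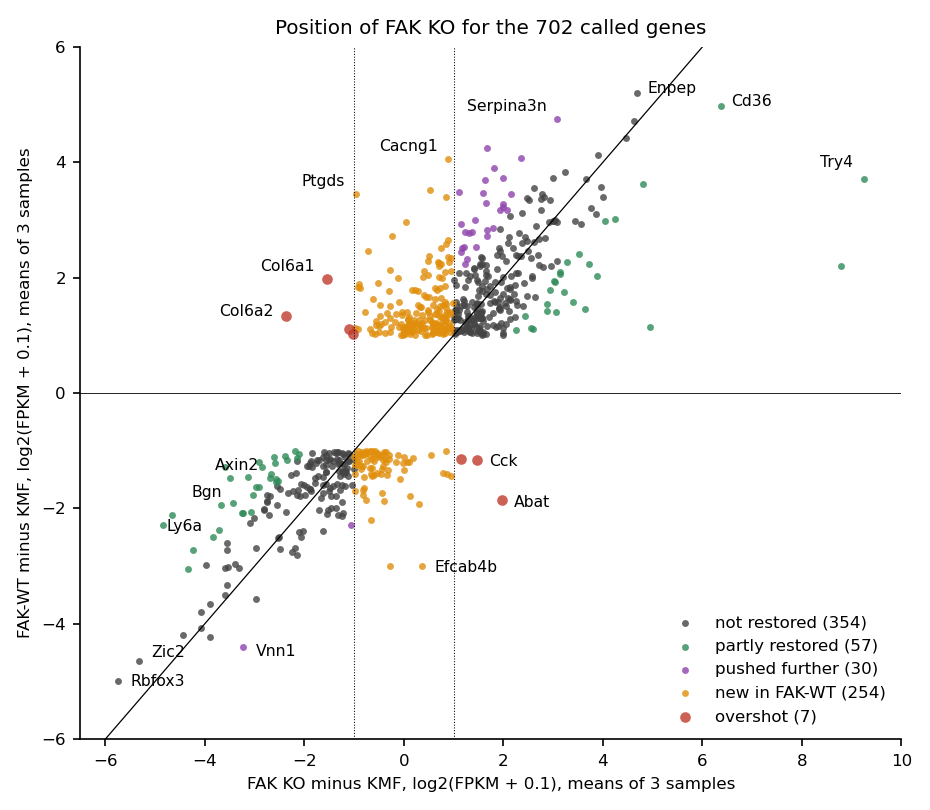
Each point is 1 of the 702 called genes, with the FAK KO minus KMF difference on the x axis and the FAK-WT minus KMF difference on the y axis, both on the log2(FPKM + 0.1) scale from means of 3 samples; colors give the position classes, the diagonal marks equal levels in FAK KO and FAK-WT, and the dotted lines mark a FAK KO difference of 1. The 354 genes not restored follow the diagonal, the 254 new genes lie between the dotted lines, and the 7 overshot genes (Col6a1, Col6a2, Cck, Abat and 3 others) lie in opposite quadrants.

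The genes that stayed within 1 of the knockout level on the log2 scale included those with the greatest differences. Enpep (ENSMUSG00000028024, chromosome 3, 129269175 to 129332720), which encodes glutamyl aminopeptidase, an angiotensin-cleaving ectoenzyme, was 0.329, 0.30 and 0.237 FPKM in KMF, 9.83, 8.95 and 10.9 in FAK KO and 18.4, 16.6 and 9.3 in FAK-WT samples. Every FAK-WT sample was above every KMF sample (log2 difference 5.21, SE 0.25, limma adjusted p = 2.64e-05). Vopp1 was 0.015, 0.0156 and 0.0309 FPKM in KMF and 2.85, 2.98 and 3.4 in FAK-WT samples (log2 difference 4.72), beside 2.58, 3.08 and 3.0 FPKM in FAK KO. Tmem255a had 0.14, 0.0485 and 0.0767 FPKM in KMF and 4.5, 4.36 and 2.94 in FAK-WT samples (log2 difference 4.42). These genes were below 1 FPKM in KMF and above it in every sample of the clone-derived lines, with 56.3, 48.9 and 51.8 FPKM of Tmem255a in β-catenin ΔGSK cells. Fam49a was 0.547 ± 0.0975 FPKM in KMF and 11.1 ± 1.32 in FAK-WT cells (SD, n = 3 each), with 9.55 ± 1.22 FPKM in FAK KO cells. The semaphorin Sema3g, a secreted guidance ligand, also stayed within 1 of the knockout level, with 0.546, 0.355 and 0.556 FPKM in KMF, 5.58, 4.34 and 6.32 in FAK KO and 6.95, 8.42 and 9.35 in FAK-WT samples (log2 difference 3.84). In β-catenin ΔGSK samples, however, Sema3g was 0.023, 0.061 and 0.045 FPKM, below every KMF sample.

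The genes that fell with the knockout and did not return were led by Rbfox3 and Zic2. Rbfox3 (ENSMUSG00000025576, chromosome 11, 118489762 to 118911597), the neuronal splicing factor known as NeuN, was 5.88, 5.68 and 4.84 FPKM in KMF and 0.0532, 0.0355 and 0.152 in FAK-WT samples (log2 difference -5.0, SE 0.25, limma adjusted p = 2.69e-05). Its FAK KO values were 0, 0.0122 and 0 FPKM. Zic2 (ENSMUSG00000061524, chromosome 14, 122475435 to 122479852), a zinc-finger factor of forebrain patterning, was 4.43, 4.12 and 3.31 FPKM in KMF and 0.055, 0.0305 and 0.104 in FAK-WT samples (log2 difference -4.65, SE 0.23, limma adjusted p = 2.64e-05), and it is listed at 0 in all FAK KO samples. The non-coding neighbour of Zic2, 2610035F20Rik, fell with it, from 1.41 ± 0.319 FPKM to 0.018 ± 0.00146 FPKM (SD, n = 3 each, log2 difference -3.66). Limch1, an activator of non-muscle myosin, had 2.24, 2.79 and 2.18 FPKM in KMF and 0.0454, 0.0379 and 0.0162 in FAK-WT samples (log2 difference -4.23). Thbd, the thrombin receptor thrombomodulin, fell from 14.1 ± 0.791 FPKM to 1.15 ± 0.464 FPKM (log2 difference -3.56), and the retinol-binding protein gene Rbp7 from 7.05 ± 1.01 FPKM to 0.446 ± 0.224 FPKM (log2 difference -3.8; SD, n = 3 each). Of the non-coding genes, RP24-72G22.2 was 1.8, 2.3 and 2.14 FPKM in KMF, listed at 0 in FAK KO and at 0, 0.0299 and 0.0256 FPKM in FAK-WT samples, and 2410018L13Rik fell by 3.5 on the log2 scale. Gm9312 was 1.43, 1.49 and 1.85 FPKM in KMF and is listed at 0 in all FAK KO and FAK-WT samples. The Foxf1 locus, with a mesenchymal forkhead factor and its divergent non-coding partner Fendrr, was lower as well. Fendrr was 1.21, 1.67 and 1.2 FPKM in KMF, 0.0276, 0 and 0.0445 in FAK KO and 0.0139, 0.0464 and 0.0793 in FAK-WT samples, and was not restored. Foxf1 was 3.81, 4.03 and 2.44 FPKM in KMF, 0.138, 0.0635 and 0.0592 in FAK KO and 0.264, 0.447 and 0.606 in FAK-WT samples, so that it was partly restored. Both overlap Gm20388 in the table, so their fragments cannot be told from those of that gene.

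Partly restored genes lay between the knockout and the parental level. Cd36 (ENSMUSG00000002944, chromosome 5, 17781690 to 17888959), a fatty acid and thrombospondin receptor, was 0.0579, 0.0804 and 0.238 FPKM in KMF, 21.9, 15.2 and 16.3 in FAK KO and 7.16, 5.9 and 6.77 in FAK-WT samples. FAK-WT remained above every KMF sample (log2 difference 4.97, SE 0.28, limma adjusted p = 3.76e-05) after a fall of 1.40 on the log2 scale from FAK KO. Try4, a trypsinogen gene, had 76.3, 87.2 and 83.7 FPKM in FAK KO against 2.34, 1.91 and 1.03 FPKM in FAK-WT and 0.0859, 0 and 0.0354 FPKM in KMF samples. Most of the knockout's rise was thus gone, while FAK-WT was still above KMF (log2 difference 3.7, adjusted p = 0.000343, limma). Try4 has close relatives whose fragments may be assigned to the wrong copy, as has the proliferin gene Prl2c3 (log2 difference 3.62). The urea transporter gene Slc14a1 was 0.132, 0.0684 and 0.0696 FPKM in KMF, 3.78, 3.23 and 3.36 in FAK KO and 1.36, 1.52 and 1.36 in FAK-WT samples.

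In the other direction, Gata5, a zinc-finger factor of heart and mesothelial development, was 2.55, 2.25 and 2.13 FPKM in KMF, 0.0507, 0.0117 and 0 in FAK KO and 0.205, 0.216 and 0.155 in FAK-WT samples (log2 difference -3.05, SE 0.17, limma adjusted p = 3.75e-05). Bcat1, which transaminates branched-chain amino acids, had 2.0, 1.89 and 1.87 FPKM in KMF, 0.0254, 0.0685 and 0.073 in FAK KO and 0.308, 0.262 and 0.301 in FAK-WT samples. At higher levels, Ly6a (ENSMUSG00000075602, chromosome 15, 74994877 to 74998031), which encodes the surface antigen Sca-1, was 108, 111 and 137 FPKM in KMF, 8.87, 8.63 and 7.22 in FAK KO and 19, 19.4 and 24.6 in FAK-WT samples. The rise over FAK KO was 1.34 on the log2 scale and left Ly6a 2.49 below KMF (standard error 0.13, adjusted p = 2.69e-05 from limma).

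In the 28 higher genes pushed further, FAK KO was already above KMF and FAK-WT lay higher still. Serpina3n (ENSMUSG00000021091, chromosome 12, 104406729 to 104414329), a secreted serine protease inhibitor, was 0.467, 0.486 and 0.92 FPKM in KMF, 7.51, 6.58 and 3.95 in FAK KO and 12.8, 17.6 and 28.5 in FAK-WT samples. FAK-WT sample 3 was the highest, and the groups did not overlap (log2 difference 4.75, SE 0.33, limma adjusted p = 7.5e-05). Tmem45a had 0.756 ± 0.227, 2.86 ± 0.605 and 12.9 ± 4.48 FPKM in KMF, FAK KO and FAK-WT cells (SD, n = 3 each), and the keratin gene Krt76 had 0.706 ± 0.194, 3.04 ± 0.307 and 10.4 ± 0.518 FPKM. The 2 lower genes of this kind were Vnn1, which encodes the pantetheinase vanin-1, and Spint2, which encodes an inhibitor of membrane serine proteases. Vnn1 was 4.71, 5.16 and 5.23 FPKM in KMF, 0.55, 0.302 and 0.532 in FAK KO and 0.264, 0.154 and 0.0527 in FAK-WT samples (log2 difference -4.41, SE 0.30, limma adjusted p = 7.04e-05). Spint2 fell by 2.28 on the log2 scale, from 2.04 ± 0.402 to 0.353 ± 0.155 FPKM (SD, n = 3 each).

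Genes whose difference was new in FAK-WT lay within 1 of the parental level in the knockout on the log2 scale, some of them near that edge. Ptgds (ENSMUSG00000015090, chromosome 2, 25466709 to 25470046), the lipocalin-type prostaglandin D synthase, was 6.2, 5.7 and 4.72 FPKM in KMF, 3.35, 2.63 and 2.4 in FAK KO and 72.1, 69.7 and 45 in FAK-WT samples (log2 difference 3.44, SE 0.19, limma adjusted p = 3.33e-05). Its FAK KO level lay 0.97 below KMF on the log2 scale, at the edge of the overshot class. Cacng1, a calcium channel γ subunit, was 0.0551, 0.0287 and 0.159 FPKM in KMF and 2.93, 2.98 and 2.45 in FAK-WT samples, and Apobr, a lipoprotein receptor, 0.289, 0.437 and 0.454 FPKM in KMF and 4.76, 5.22 and 6.77 in FAK-WT samples. Both were low in FAK KO cells, at 0.213, 0.123 and 0.372 FPKM for Cacng1 and 0.568, 0.843 and 0.446 FPKM for Apobr, while FAK-R454 samples had 1.79 and 1.64 FPKM and 2.91 and 2.74 FPKM. Wipf1, which binds WASP and stabilizes actin filaments, was 0.0582, 0.0758 and 0.0959 FPKM in KMF, 0.141, 0.308 and 0.219 in FAK KO, 1.7, 1.76 and 1.8 in FAK-WT and 1.96 and 2.08 in FAK-R454 samples (log2 difference from KMF in FAK-WT 3.39). Among lower genes, Efcab4b, a calcium-sensing regulator of store-operated calcium entry, was 1.76, 1.7 and 1.5 FPKM in KMF, 1.7, 2.38 and 2.45 in FAK KO and 0.184, 0.136 and 0.0582 in FAK-WT samples (log2 difference -3.0, SE 0.26, limma adjusted p = 0.000183). The serine protease-like gene Prss35 was 20.8, 17.9 and 25 FPKM in KMF, 31.1, 24.2 and 23.2 in FAK KO and 4.03, 4.68 and 8.56 in FAK-WT samples. Ckmt1, mitochondrial creatine kinase, fell by 2.21 on the log2 scale, and the pseudogene Gm11874 by 3.0 with 0, 0 and 0.49 FPKM in FAK-WT samples, a call lost without KMF sample 3 and a difference of -3.85 without FAK-WT sample 3.

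The overshot genes were led by collagen VI, a microfibrillar collagen of the pericellular matrix. Col6a1 (ENSMUSG00000001119, chromosome 10, 76708792 to 76726168) was 17.5, 16.3 and 17.7 FPKM in KMF, 5.39, 5.61 and 6.63 in FAK KO and 64.6, 69.5 and 68.8 in FAK-WT samples. The knockout lay 1.53 below KMF on the log2 scale (adjusted p = 4.23e-06 from limma) and FAK-WT 1.97 above it (standard error 0.06, adjusted p = 6.95e-06). Its neighbour Col6a2 (ENSMUSG00000020241, chromosome 10, 76595762 to 76623630) followed, with 5.65, 5.52 and 4.55 FPKM in KMF, 0.73, 1.08 and 1.02 in FAK KO and 14.3, 14.1 and 11.9 in FAK-WT samples (log2 difference 1.34, SE 0.11, limma adjusted p = 0.000144). In FAK-R454 cells the values were 27.3 and 24.3 FPKM for Col6a1 and 7.4 and 6.27 FPKM for Col6a2, and in β-catenin ΔGSK cells 5.68, 6.32 and 5.06 FPKM and 0.76, 0.657 and 0.706 FPKM. The other 2 higher genes were Foxred2, an oxidoreductase of the endoplasmic reticulum, and Fmnl2, a formin that elongates actin filaments. Foxred2 was 2.61, 2.48 and 2.28 FPKM in KMF, 1.24, 1.04 and 1.01 in FAK KO and 5.36, 5.52 and 5.3 in FAK-WT samples. Fmnl2 was 0.935, 0.771 and 0.712 FPKM in KMF, 0.369, 0.367 and 0.305 in FAK KO and 1.82, 1.85 and 1.54 in FAK-WT samples (log2 difference 1.03). It was no longer called without FAK-WT sample 1, without FAK-WT sample 2 or without KMF sample 3. The 3 lower genes overshot in the opposite sense, being raised in FAK KO and below KMF in FAK-WT. Abat, which breaks down the transmitter GABA, was 1.51, 1.59 and 1.42 FPKM in KMF, 6.4, 5.25 and 7.06 in FAK KO and 0.513, 0.394 and 0.185 in FAK-WT samples (log2 difference -1.86, adjusted p = 0.00213, limma). Cck, which encodes the peptide cholecystokinin, was 8.84, 7.37 and 9.47 FPKM in KMF, 23.9, 26.4 and 21.3 in FAK KO and 3.67, 2.72 and 5.3 in FAK-WT samples, and it was no longer called without FAK-WT sample 2. Gcnt3, a mucin-type glycosyltransferase, was 7.96, 8.49 and 8.06 FPKM in KMF, 19.8, 16.7 and 18 in FAK KO and 4.12, 3.67 and 3.18 in FAK-WT samples. With a pseudocount of 1 Foxred2, Fmnl2, Abat, Cck and Gcnt3 were no longer called, and with chromosomes centred Foxred2, Cck and Gcnt3 were not.

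**Figure D3:**
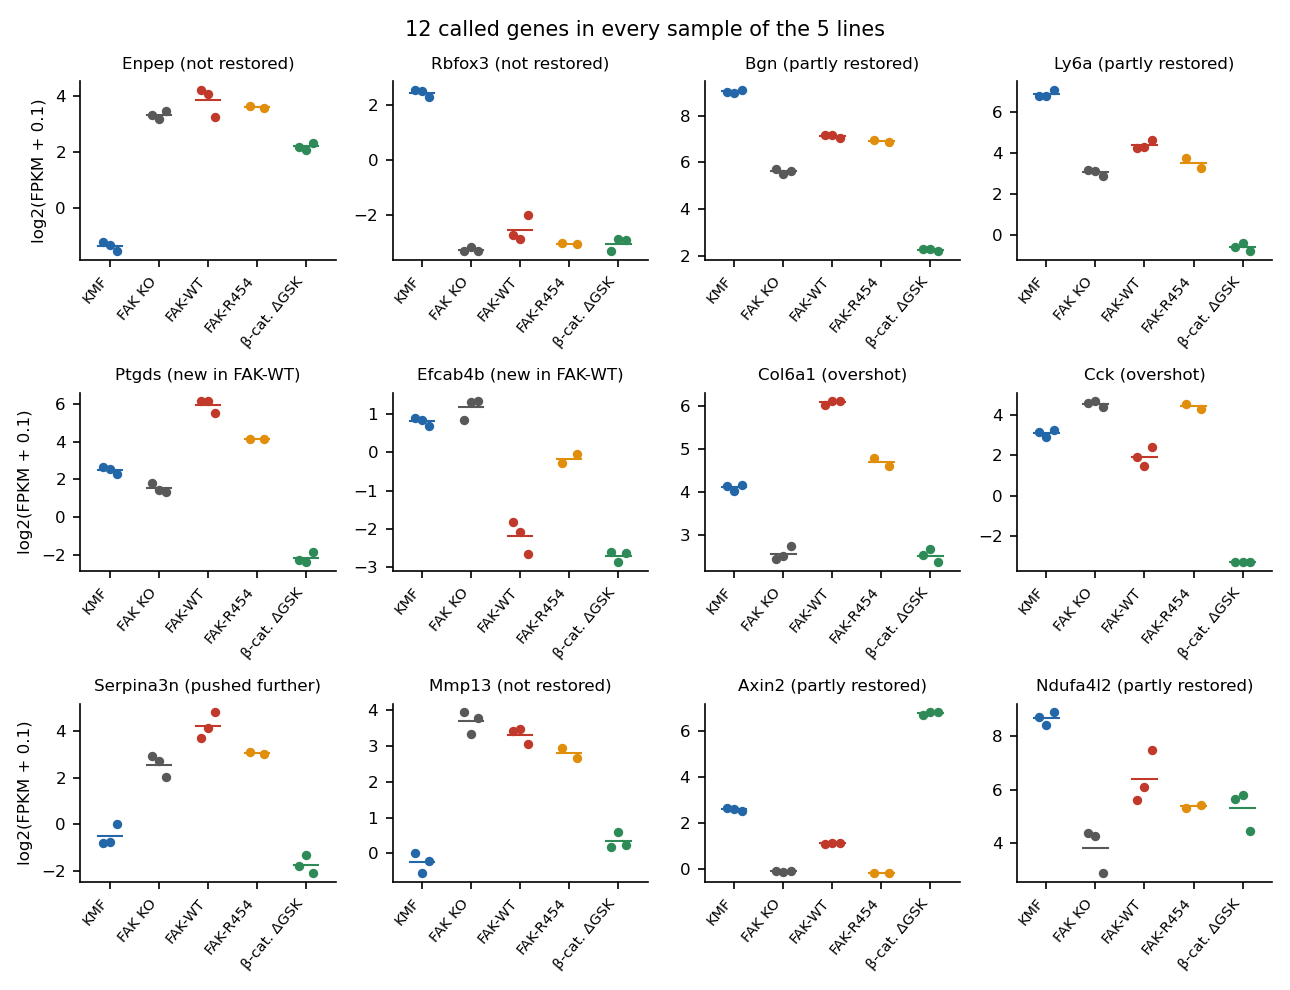
Level of 12 called genes in every sample of the 5 lines, as log2(FPKM + 0.1), with 3 points a line (2 for FAK-R454) and a bar for the mean; each panel has its own y axis and names the gene's position class. Enpep and Rbfox3 stay at the FAK KO level in FAK-WT, Bgn, Ly6a, Axin2 and Ndufa4l2 lie between FAK KO and KMF, and Col6a1 and Cck lie on opposite sides of KMF in FAK KO and FAK-WT.

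The start regions of the collagen VI pair and of 2 neighbouring metalloproteinase genes, Mmp13 and Mmp10, are shown because all were called higher in FAK-WT than in KMF. The pairs differed in their position relative to FAK KO. Mmp13 and Mmp10 were already raised in FAK KO, and FAK-WT differed from it by -0.39 and -0.03 on the log2 scale. Col6a1 and Col6a2 lay 3.51 and 3.70 above FAK KO. Each run covers 250 bases before and 50 bases after the start in RefSeq (GRCm38.p6), read 5′ to 3′ on the gene's strand, and capitals mark TGANTCA, the letters read by AP-1 factors, searched on both strands with N as any base. Of 8610 tested genes with such a window 4.82% held these letters. The windows shown were picked by hand, so that share is a description and no test. The windows lie on chromosome 10 at chr10:76725995-76726294 (Col6a1, minus strand) and chr10:76623355-76623654 (Col6a2, minus strand), and on chromosome 9 at chr9:7272264-7272563 (Mmp13, plus strand) and chr9:7502092-7502391 (Mmp10, plus strand).
Col6a1: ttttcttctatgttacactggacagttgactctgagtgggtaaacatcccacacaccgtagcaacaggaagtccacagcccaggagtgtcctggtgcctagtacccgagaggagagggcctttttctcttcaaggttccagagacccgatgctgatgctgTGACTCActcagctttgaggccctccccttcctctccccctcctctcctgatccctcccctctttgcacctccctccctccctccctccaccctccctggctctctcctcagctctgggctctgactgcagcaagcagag
Col6a2: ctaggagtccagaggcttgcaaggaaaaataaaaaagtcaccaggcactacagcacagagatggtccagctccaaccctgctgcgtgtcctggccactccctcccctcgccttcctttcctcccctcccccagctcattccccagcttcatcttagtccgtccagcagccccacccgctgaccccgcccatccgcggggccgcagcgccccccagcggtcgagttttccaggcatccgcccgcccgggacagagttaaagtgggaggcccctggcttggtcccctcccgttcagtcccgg
Mmp13: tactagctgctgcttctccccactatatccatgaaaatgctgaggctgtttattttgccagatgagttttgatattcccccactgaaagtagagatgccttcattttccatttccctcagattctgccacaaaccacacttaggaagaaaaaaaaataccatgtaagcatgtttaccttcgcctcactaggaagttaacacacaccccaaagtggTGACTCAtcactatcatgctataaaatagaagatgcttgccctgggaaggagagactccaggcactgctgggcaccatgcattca
Mmp10: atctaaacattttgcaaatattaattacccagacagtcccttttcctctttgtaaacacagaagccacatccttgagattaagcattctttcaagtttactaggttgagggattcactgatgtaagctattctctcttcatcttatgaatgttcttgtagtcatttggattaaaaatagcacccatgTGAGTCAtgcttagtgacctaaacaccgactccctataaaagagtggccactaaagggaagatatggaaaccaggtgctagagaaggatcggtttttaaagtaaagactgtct
A match began 90 bases before the start of Col6a1, 35 before that of Mmp13 and 63 before that of Mmp10, and the Col6a2 window holds none of these letters. Only the first listed start of each gene was searched. A match describes the sequence only, and binding was not measured.

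Collagen genes were more often above the parental level than below it. The counts of this list and of those that follow stand against 3.82% called higher and 2.11% called lower among all tested genes. Of 18 collagen genes tested, 7 were called higher and 1 lower, with a median log2 difference of 0.68 against -0.04 for all genes, and the list's median in FAK KO was -0.23. In the 3 FAK-WT samples the list median was 0.49, 0.60 and 0.81 above the KMF mean, and without sample 3 of either line 6 were called higher and 1 lower with a median of 0.35. Col1a1, the main fibrillar collagen of stroma, was 2.5, 2.3 and 2.58 FPKM in KMF, 1.53, 1.51 and 0.928 in FAK KO and 7.57, 8.04 and 11.8 in FAK-WT samples (log2 difference 1.82, SE 0.16, limma adjusted p = 0.000198). Col6a3, the third chain of collagen VI, was 2.48, 2.62 and 3.41 FPKM in KMF, 2.96, 3.47 and 3.48 in FAK KO and 7.92, 9.02 and 13.7 in FAK-WT samples. Col27a1, Col5a3 and Col18a1 also rose, by 4.24, 3.48 and 2.15 on the log2 scale. Col18a1, the basement membrane collagen that holds endostatin, had 1.37, 1.27 and 1.37 FPKM in KMF and 6.4, 5.64 and 6.91 in FAK-WT samples, whereas Col5a3 was 0, 0.0117 and 0.0139 FPKM in KMF and 0.701, 0.731 and 2.58 in FAK-WT samples, with FAK-WT sample 3 highest. The exception was Col5a2, a fibril-nucleating chain, which was 6.1, 5.97 and 8.39 FPKM in KMF, 0.386, 0.452 and 0.572 in FAK KO and 0.552, 0.843 and 0.831 in FAK-WT samples (log2 difference -3.04, SE 0.19, limma adjusted p = 5.58e-05).

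Of 22 matrix glycoprotein genes tested, 5 were called higher and 3 lower (median 0.38). Fibronectin, Fn1, the main ligand of the α5β1 integrin, was 64.2, 72.8 and 75 FPKM in KMF, 60.7, 59.1 and 47.3 in FAK KO and 147, 158 and 270.0 in FAK-WT samples (log2 difference 1.39, SE 0.22, limma adjusted p = 0.00226), with sample 3 the highest. The elastic-fiber glycoprotein gene Emilin1 was 1.0, 1.07 and 1.4 FPKM in KMF and 8.27, 8.13 and 8.82 in FAK-WT samples, and the small proteoglycan decorin, Dcn, 30.5, 29.6 and 39 FPKM in KMF and 104, 109 and 125 in FAK-WT samples. Dcn had not returned from its FAK KO level of 122, 89.2 and 85.9 FPKM. Vcan and Matn2 rose by 1.43 and 1.08 on the log2 scale, and Matn2 was no longer called without FAK-WT sample 3. In contrast, Bgn (ENSMUSG00000031375, chromosome X, 73483602 to 73495933), which encodes the proteoglycan biglycan, was 525, 509.5 and 557 FPKM in KMF, 53.2, 44.8 and 49.1 in FAK KO and 145, 145 and 132 in FAK-WT samples (log2 difference -1.91, SE 0.07, limma adjusted p = 1e-05). It had risen by 1.52 from FAK KO and was still below every KMF sample. Fbln1 showed the same position, with 20.6, 20.2 and 18.2 FPKM in KMF, 1.85, 1.99 and 2.06 in FAK KO and 4.59, 4.4 and 4.71 in FAK-WT samples. The microfibril gene Fbn1 fell by 1.78, from 1.87 ± 0.0122 to 0.476 ± 0.0109 FPKM (SD, n = 3 each). Among 6 laminin and nidogen genes only Lamb3, a chain of laminin-332, was called, at 5.67, 4.84 and 7.05 FPKM in KMF, 0.171, 0.122 and 0.114 in FAK KO and 0.844, 1.22 and 1.95 in FAK-WT samples (log2 difference -2.11).

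Of 24 matrix protease and inhibitor genes, 4 were called higher and none lower (median 0.17, and 0.10 without FAK-WT sample 3; 3 at any fold were lower by limma, as by limma-voom). Mmp13 (ENSMUSG00000050578, chromosome 9, 7272514 to 7283333), collagenase-3, was 0.913, 0.576 and 0.763 FPKM in KMF, 15.5, 10.01 and 13.8 in FAK KO and 10.6, 11 and 8.19 in FAK-WT samples (log2 difference 3.57, SE 0.18, limma adjusted p = 2.69e-05). Mmp10 (ENSMUSG00000047562, chromosome 9, 7502352 to 7510238), stromelysin-2, was 0.20, 0.187 and 0.231 FPKM in KMF, 2.09, 2.52 and 2.58 in FAK KO and 2.9, 3.14 and 1.37 in FAK-WT samples (log2 difference 2.99, adjusted p = 0.000377, limma). Neither had returned toward KMF by 1 or more, while in β-catenin ΔGSK cells Mmp13 was 1.03, 1.41 and 1.07 FPKM and Mmp10 0.655, 0.573 and 1.01 FPKM. Adamts1 and Mmp19 rose by 1.09 and 1.09, and neither was called without FAK-WT sample 3. Among 12 integrin genes 3 were higher and 1 lower. Itga5, the fibronectin receptor α chain, was 28.8, 27.5 and 29.3 FPKM in KMF, 30.5, 33.8 and 31.7 in FAK KO and 61, 62.1 and 69 in FAK-WT samples (log2 difference 1.16, SE 0.06, limma adjusted p = 3.34e-05), and after centring each chromosome on its median it was no longer called. Itgb8, which activates latent TGF-β, rose by 1.27 and Itga2b by 1.13, the latter not called without FAK-WT sample 3. Itga10, a collagen-binding chain, was 31.4, 28.7 and 38.8 FPKM in KMF, 3.8, 3.8 and 4.2 in FAK KO and 9.82, 9.34 and 9.5 in FAK-WT samples (log2 difference -1.76, SE 0.11, limma adjusted p = 4.72e-05).

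Of 30 genes of the FAK family and adhesion signaling, limma called none at the 2-fold threshold, and limma-voom none. At any fold 8 were higher and 9 lower, where 18.2% and 23.5% of all tested genes were. At an unadjusted p under 0.05 it was 10 and 10, and the range ran from -0.57 (Crkl, an adaptor) to 0.89 (Fyn, a Src-family kinase). The FAK relative Ptk2b, which encodes PYK2, was 6.47, 6.1 and 5.03 FPKM in KMF, 7.71, 9.47 and 8.44 in FAK KO and 9.04, 8.74 and 7.17 in FAK-WT samples (log2 difference 0.50, standard error 0.12, adjusted p = 0.0156 from limma). It was no longer past the adjusted p without FAK-WT sample 1 or 2. Among 9 mesenchymal transition factors limma and limma-voom called none, with 1 higher and 1 lower at an unadjusted p under 0.05. Of 16 junction genes 2 were higher, the gap junction gene Gja1 (log2 difference 1.34, 67 ± 5.84 to 172 ± 34.4 FPKM) and the claudin gene Cldn3 (1.29, 22.1 ± 6.75 to 52.8 ± 8.07 FPKM; SD, n = 3 each). N-cadherin, Cdh2, had risen in the knockout and lay close to KMF in FAK-WT, with 15.8, 15.6 and 14.6 FPKM in KMF, 27.1, 24.7 and 26.2 in FAK KO and 14.2, 14.2 and 14.9 in FAK-WT samples (log2 difference -0.08, SE 0.06, limma adjusted p = 0.263). E-cadherin, Cdh1, was below the level for testing, at 0.746, 0.825 and 0.71 FPKM in KMF and 0.0378, 0.0252 and 0.00719 in FAK-WT samples. Of 14 contractile and YAP target genes only Csrp1, a LIM protein of actin bundles, was called, falling from 126 ± 3.21 to 53.2 ± 0.406 FPKM (SD, n = 3 each). Csrp1 was 39.96, 45.3 and 42.4 FPKM in FAK KO samples, and it was no longer called with chromosomes centred.

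Canonical Wnt signaling stabilizes β-catenin, which then raises feedback genes such as Axin2. Axin2 (ENSMUSG00000000142, chromosome 11, 108920349 to 108950783) was 6.11, 6.0 and 5.54 FPKM in KMF, 0.819, 0.81 and 0.839 in FAK KO and 2.02, 2.05 and 2.09 in FAK-WT samples. FAK-WT lay 1.22 above FAK KO and 1.47 below KMF on the log2 scale (standard error 0.08, adjusted p = 2.85e-05 from limma), beside 102, 112 and 114 FPKM in β-catenin ΔGSK samples. Of 9 target genes tested, 2 were called lower and none higher (2 higher at any fold by limma and by limma-voom), and the list median was -0.04 in FAK-WT against -0.46 in FAK KO. Without sample 3 of either line it was -0.12 in FAK-WT, and without FAK-WT sample 3 it was -0.01, with 1 gene called lower in both. The second gene called lower, Rnf43, a ubiquitin ligase that removes Wnt receptors, was 6.51, 7.38 and 5.58 FPKM in KMF and 3.62, 3.57 and 2.44 in FAK-WT samples (log2 difference -1.0), at the threshold, and it was no longer called without FAK-WT sample 3, KMF sample 1 or KMF sample 2. Ctnnb1, which encodes β-catenin, was 197, 195 and 207 FPKM in KMF, 148, 139.5 and 146 in FAK KO and 127, 129 and 129.6 in FAK-WT samples (log2 difference -0.64, adjusted p = 0.000154 from limma). Myc, a target in many tissues, did not pass the test, with 53.9, 55.2 and 43.5 FPKM in KMF, 38, 35.7 and 36.6 in FAK KO and 49.2, 51.6 and 46.7 in FAK-WT samples (log2 difference -0.04, SE 0.10, limma adjusted p = 0.75). FAK-WT lay 0.42 above FAK KO for Myc on the log2 scale. Genes of chromosome 15, which carries Myc, lay 0.38 higher in the same comparison relative to other chromosomes. The part of that shift in the Myc values was not tested.

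Among 24 Wnt ligand, receptor and inhibitor genes 4 were called higher and 1 lower, although the median of the list was -0.26. The higher genes were all ligands. Wnt5a (ENSMUSG00000021994, chromosome 14, 28504750 to 28527447), a mostly non-canonical ligand, was 1.85, 1.75 and 2.08 FPKM in KMF, 7.27, 7.66 and 7.39 in FAK KO and 13.3, 13.5 and 16 in FAK-WT samples (log2 difference 2.85, SE 0.10, limma adjusted p = 9.37e-06). Wnt5b, its close relative, was 2.13, 2.05 and 1.61 FPKM in KMF, 6.67, 8.04 and 7.44 in FAK KO and 6.66, 6.57 and 4.75 in FAK-WT samples. Wnt7b was 5.32, 4.78 and 5.3 FPKM in KMF, 3.85, 4.2 and 2.96 in FAK KO, 11.4, 12.9 and 22.4 in FAK-WT and 8.67 and 10.4 in FAK-R454 samples (log2 difference 1.52, adjusted p = 0.00193, limma). Wnt10a lay 1.19 above KMF in FAK-WT, at 26.8, 29 and 26.5 FPKM, beside 26.8 and 26.3 in FAK-R454 and 30.8, 29.7 and 33.4 in β-catenin ΔGSK samples. Wnt1 was the lower ligand, at 2.13, 1.61 and 1.42 FPKM in KMF and 0.606, 0.533 and 1.17 in FAK-WT samples, and it lost its call without FAK-WT sample 1, FAK-WT sample 2 or KMF sample 1.

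The study's own list of transcripts linked to FAK activity and β-catenin was chosen on these samples, so its place here is not independent evidence. Of 133 tested members 22 were higher than in KMF and 8 lower, where 3.82% and 2.11% of all tested genes were, and the median was -0.04, the same as for all genes, and 0.02 without FAK-WT sample 3. Its median in FAK KO was -0.64, and those comparisons share the KMF samples. Members above the parental level included Clip3, a microtubule-binding protein (0.305, 0.318 and 0.159 FPKM in KMF, 2.57, 2.51 and 3.08 in FAK KO and 5.21, 5.51 and 3.34 in FAK-WT samples), and Trem2, a lipid-sensing receptor of myeloid cells (0.151, 0.0824 and 0.172 FPKM in KMF, 1.41, 1.75 and 1.45 in FAK KO and 2.8, 2.73 and 1.72 in FAK-WT samples). Efs, a Src-binding scaffold of the p130Cas family, was 3.95, 3.39 and 2.4 FPKM in KMF, 8.35, 9.94 and 10.8 in FAK KO and 16.1, 17 and 16.4 in FAK-WT samples. In these 3 genes FAK KO was already above KMF by 1 or more on the log2 scale. Ndrg2 was 1.07, 0.515 and 0.657 FPKM in KMF, 1.48, 1.26 and 1.72 in FAK KO and 3.09, 3.07 and 4.29 in FAK-WT samples, with FAK KO 0.95 above KMF on the log2 scale (limma adjusted p = 0.012), just inside the limit of the genes called new. Ptpn5 was 0.292, 0.315 and 0.275 FPKM in KMF, 0.635, 0.558 and 0.455 in FAK KO and 1.68, 2.06 and 1.43 in FAK-WT samples, and Rnf182 0.262, 0.445 and 0.44, 0.572, 0.455 and 0.524 and 1.79, 1.87 and 1.75 FPKM. Members still below KMF included Fhl2, a LIM-domain cofactor of β-catenin (11.2, 9.85 and 10.1 FPKM in KMF, 1.38, 1.59 and 1.58 in FAK KO and 3.3, 2.93 and 2.59 in FAK-WT samples), and Ripk3, the necroptosis kinase (10.4, 9.74 and 10.1 FPKM in KMF, 1.5, 1.64 and 1.84 in FAK KO and 3.7, 3.81 and 2.9 in FAK-WT samples).

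Aldehyde dehydrogenases detoxify aldehydes, and their activity is used as a marker of ovarian cancer stem cells. Of 21 stem cell and ALDH genes 2 were higher and 2 lower, where 3.82% and 2.11% of all tested genes were. Aldh1l1, a folate enzyme, was 0.288, 0.30 and 0.292 FPKM in KMF, 5.12, 5.46 and 5.14 in FAK KO and 3.26, 3.1 and 4.32 in FAK-WT samples (log2 difference 3.2, SE 0.16, limma adjusted p = 2.69e-05). Aldh3b1 rose from 34.9 ± 1.72 to 74.9 ± 1.2 FPKM (SD, n = 3 each), and its call was lost when chromosomes were centred. FAK KO samples had 59.2, 62.3 and 63.4 FPKM of Aldh3b1, already 0.82 above KMF on the log2 scale (limma adjusted p = 1.84e-05). Aldh1a1, the retinal-oxidizing form, was 101, 104 and 104 FPKM in KMF, 81, 73.4 and 80.2 in FAK KO and 51.1, 54.5 and 43.6 in FAK-WT samples (log2 difference -1.05, SE 0.08, limma adjusted p = 0.000136). It was not called without FAK-WT sample 3. Aldh1b1, a mitochondrial form, was 4.39, 4.94 and 4.09 FPKM in KMF, 1.75, 1.85 and 1.85 in FAK KO and 1.25, 1.1 and 1.04 in FAK-WT samples, with 6.55, 6.72 and 8.59 FPKM in β-catenin ΔGSK cells.

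Prostaglandin and lysophosphatidic acid genes gave 4 higher and 2 lower of 17. Beside Ptgds, the receptor genes Ptger3 and Ptgfr were raised. Ptger3, a prostaglandin E2 receptor, was 0.0492, 0.0342 and 0.027 FPKM in KMF, 1.43, 1.72 and 1.75 in FAK KO and 1.49, 1.72 and 1.87 in FAK-WT samples (log2 difference 3.71, SE 0.22, limma adjusted p = 4.72e-05), and Ptgfr, the prostaglandin F receptor, 0.482, 0.596 and 0.492 FPKM in KMF, 3.04, 2.94 and 2.67 in FAK KO and 1.82, 1.95 and 1.6 in FAK-WT samples. Enpp2, the enzyme autotaxin that makes lysophosphatidic acid, was 36.2, 42.2 and 29.2 FPKM in KMF, 38.2, 35.4 and 41.4 in FAK KO and 92.3, 86.8 and 52.3 in FAK-WT samples, and it was no longer called without FAK-WT sample 1, FAK-WT sample 2 or KMF sample 3. Its receptor gene Lpar1 was lower (1.23, 1.18 and 1.47 FPKM in KMF, 0.188, 0.108 and 0.101 in FAK KO and 0.483, 0.578 and 0.575 in FAK-WT samples), as was Ppap2b, a phosphatase that degrades the lipid, at 11.2, 12.4 and 9.36 FPKM in KMF, 1.33, 1.38 and 1.59 in FAK KO and 5.11, 4.74 and 3.6 in FAK-WT samples.

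Of 35 growth factor and receptor genes 7 were higher and 2 lower. Ngfr, the low-affinity neurotrophin receptor, was 0.429, 0.894 and 0.452 FPKM in KMF, 1.45, 1.9 and 2.64 in FAK KO and 9.22, 9.42 and 6.87 in FAK-WT samples (log2 difference 3.69, SE 0.26, limma adjusted p = 7.53e-05), far below the 176, 177 and 164 FPKM of β-catenin ΔGSK cells. The EGF receptor ligands Areg and Ereg stayed within 1 of the knockout level on the log2 scale. Areg was 7.09, 6.57 and 8.84 FPKM in KMF, 36.5, 31.6 and 32.7 in FAK KO and 32, 28.9 and 30.9 in FAK-WT samples (log2 difference 2.02, adjusted p = 3.24e-05, limma). Ereg was 1.56, 1.54 and 1.65 FPKM in KMF, 7.8, 5.78 and 7.41 in FAK KO and 5.06, 4.57 and 4.54 in FAK-WT samples, having fallen by 0.55 from FAK KO (limma adjusted p = 0.00881). The insulin-like growth factor binding protein genes Igfbp3 and Igfbp2 lay 3.56 and 2.23 above KMF. Igfbp3 was 0.284, 0.518 and 0.609 FPKM in KMF, 3.4, 4.43 and 2.39 in FAK KO and 4.42, 4.46 and 13.2 in FAK-WT samples, with FAK-WT sample 3 highest. Igfbp2 was 1.0, 0.658 and 0.694 FPKM in KMF, 9.48, 13.7 and 11.5 in FAK KO and 4.51, 3.96 and 3.56 in FAK-WT samples, and was thus partly restored. Fgf1 rose from 2.65 ± 0.0804 to 9.18 ± 1.07 FPKM and the receptor gene Fgfr2 from 0.274 ± 0.0471 to 1.69 ± 0.377 FPKM, while Fgf18 fell from 2.23 ± 0.135 to 0.679 ± 0.0294 FPKM and Fgfr3 from 60.02 ± 2.1 to 24.8 ± 2.11 FPKM (SD, n = 3 each). FAK KO samples had 30.4, 34.8 and 36.9 FPKM of Fgfr3, which lay 0.82 below KMF on the log2 scale (limma adjusted p = 6.89e-05), and 0.592, 0.407 and 0.589 FPKM of Fgfr2, so that part of the Fgfr3 difference was present before re-expression. The Fgfr2 interval in the table spans many other genes, so its fragments are uncertain.

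In the TGF-β and BMP pathway 1 gene of 31 was higher and 1 lower, close to the 3.82% and 2.11% of all tested genes. Bmp2, a bone morphogenetic ligand, was 3.13, 2.66 and 2.11 FPKM in KMF and 8.07, 8.8 and 20.5 in FAK-WT samples (log2 difference 2.08, SE 0.34, limma adjusted p = 0.00276). Its antagonist Grem1 was 1.53, 1.44 and 1.86 FPKM in KMF and 0.097, 0.126 and 0.391 in FAK-WT samples (log2 difference -2.61, SE 0.36, limma adjusted p = 0.00127). FAK KO values were 6.48, 5.9 and 4.97 FPKM for Bmp2 and 0.0801, 0.0277 and 0.0345 FPKM for Grem1. Of 12 Notch pathway genes 2 were lower and none higher (0 at any fold by limma or limma-voom, and 0 at an unadjusted p under 0.05). The ligand Dll1 was 8.18, 8.78 and 6.75 FPKM in KMF, 1.16, 1.47 and 1.31 in FAK KO and 1.4, 1.73 and 0.925 in FAK-WT samples (log2 difference -2.5, SE 0.21, limma adjusted p = 0.000161). The feedback gene Nrarp was 6.01, 5.59 and 4.38 FPKM in KMF, 1.08, 1.41 and 1.54 in FAK KO and 2.47, 2.44 and 1.61 in FAK-WT samples. Guidance genes, which steer axons and vessels, gave 3 higher and 1 lower of 40, against the same shares of all tested genes. Robo2, the Slit receptor, was 0.114, 0.097 and 0.157 FPKM in KMF, 1.99, 1.27 and 1.53 in FAK KO and 1.73, 1.66 and 1.52 in FAK-WT samples, and Sema5a rose by 1.09 while Sema3d fell by 1.27. Of 30 ERK output and AP-1 genes only Dusp5, an ERK phosphatase (32.4, 32.8 and 26.1 FPKM in KMF, 79.3, 95.7 and 89.5 in FAK KO and 82.7, 79.9 and 68.5 in FAK-WT samples), and Egr1, an immediate early factor (14.1, 15.3 and 15.2 FPKM in KMF, 5.15, 3.9 and 3.38 in FAK KO and 4.94, 6.89 and 10.8 in FAK-WT samples), were called, in opposite directions. Egr1 lost its call without FAK-WT sample 1.

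Of 29 interferon-stimulated genes 4 were higher and 1 lower, where 3.82% and 2.11% of all tested genes were, with a median of 0.09 that was 0.16 without sample 3 of either line. Ifit3 (ENSMUSG00000074896, chromosome 19, 34583531 to 34588731) and its neighbour Ifit2 bind foreign RNA. Ifit3 was 0.414, 0.246 and 0.438 FPKM in KMF, 0.819, 0.901 and 1.04 in FAK KO and 2.13, 3.48 and 1.82 in FAK-WT samples (log2 difference 2.44, SE 0.28, limma adjusted p = 0.000599). Ifit2 was 0.415, 0.122 and 0.23 FPKM in KMF, 0.844, 0.603 and 0.711 in FAK KO and 1.35, 1.75 and 1.65 in FAK-WT samples. Oas2, an RNA sensor, was 0.122, 0.226 and 0.115 FPKM in KMF, 1.71, 1.13 and 1.29 in FAK KO and 0.948, 1.68 and 0.973 in FAK-WT samples, and 0.327 and 0.239 FPKM in FAK-R454 cells. Ifitm1, which blocks virus entry at membranes, was the abundant member, rising from 23.9 ± 2.16 to 50.7 ± 4.52 FPKM (SD, n = 3 each), and Gbp7 fell by 1.07. Gbp7 lost its call without KMF sample 3. The start region of Ifit3 (RefSeq GRCm38.p6, chr19:34583279-34583578, plus strand) is shown because it holds 2 runs of GAAA, any 2 bases and GAAA again, the core letters of the interferon response element, both on the opposite strand and marked by capitals. They begin 156 and 122 bases before the start, and 2.89% of the windows of tested genes hold such a run. The window was chosen for these letters, so that share is a description and no test.
Ifit3: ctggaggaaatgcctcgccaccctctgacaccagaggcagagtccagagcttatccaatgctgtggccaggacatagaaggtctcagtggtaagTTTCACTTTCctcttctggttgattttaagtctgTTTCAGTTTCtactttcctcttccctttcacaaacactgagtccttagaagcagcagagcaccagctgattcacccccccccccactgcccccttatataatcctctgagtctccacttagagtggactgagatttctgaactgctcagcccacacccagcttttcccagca
The first listed window of Ifit2 holds none of these letters, and any other start of Ifit2 was not searched.

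Of 13 MHC class I and antigen processing genes only the immunoproteasome subunit Psmb8 was called, falling from 1.53 ± 0.0625 to 0.642 ± 0.139 FPKM (SD, n = 3 each). Psmb8 lost its call with a pseudocount of 1. The list had a median of -0.23 with 7 genes lower at any fold and none higher (0 by limma-voom and 0 at an unadjusted p under 0.05). Among all tested genes 23.5% were lower and 18.2% higher at any fold. Without sample 3 of either line 10 genes of the list were lower and 2 higher. Chemokines and cytokines gave 5 higher and 3 lower of 16. Il33, an alarmin, was 1.66, 1.96 and 2.41 FPKM in KMF, 8.62, 7.64 and 7.55 in FAK KO and 10.8, 10.6 and 13.1 in FAK-WT samples (log2 difference 2.47, SE 0.14, limma adjusted p = 4.23e-05). Cxcr4 was higher (0.839, 1.41 and 0.942 FPKM in KMF, 1.49, 1.68 and 1.13 in FAK KO, 5.0, 4.6 and 4.9 in FAK-WT and 4.75 and 4.6 in FAK-R454 samples), and its ligand Cxcl12 fell (22.1, 19.2 and 30.9 FPKM in KMF, 11.1, 8.51 and 7.82 in FAK KO and 4.89, 5.2 and 7.94 in FAK-WT samples; log2 difference -1.99, adjusted p = 0.000567, limma). A receptor and its ligand thus moved apart relative to KMF. The iron-binding lipocalin Lcn2 rose by 1.12 and the cytokine Lif by 1.14, while the acute-phase gene Saa3 was 9.92, 16.1 and 9.98 FPKM in KMF and 2.27, 1.47 and 0.839 in FAK-WT samples. The neutrophil chemokine Cxcl5 was 3.18, 5.58 and 3.9 FPKM in KMF and 1.74, 1.53 and 1.06 in FAK-WT samples. Lcn2 lost its call without FAK-WT sample 2 or KMF sample 1. Ccl7 rose by 1.33 at levels of 0.628, 0.977 and 1.83 FPKM, and its call was lost without FAK-WT sample 2, KMF sample 1 or KMF sample 3. The macrophage and lysosome gene Cd68, the only tested leukocyte marker, was 2.55, 3.09 and 3.62 FPKM in KMF and 6.6, 6.97 and 12.3 in FAK-WT samples. Among 23 Ly6 and surface antigen genes, Sdc3, a heparan sulfate proteoglycan, and Nt5e, the CD73 nucleotidase, were higher and 3 Ly6 genes lower. Ly6e was 229.8, 238 and 213 FPKM in KMF, 27.9, 27.9 and 27.8 in FAK KO and 58.4, 60.1 and 36.5 in FAK-WT samples (log2 difference -2.17, SE 0.18, limma adjusted p = 0.000156). Ly6c1 was 9.74, 13.5 and 12.5 FPKM in KMF, 0.512, 1.04 and 1.06 in FAK KO and 3.14, 3.22 and 2.68 in FAK-WT samples. These genes lie near Ly6a on chromosome 15 and are similar in sequence. Sdc3 was 8.01, 7.66 and 9.7 FPKM in KMF and 31, 34.6 and 73.9 in FAK-WT samples, and Nt5e, at 0.637, 0.592 and 0.78 FPKM in KMF and 1.15, 1.29 and 2.69 in FAK-WT samples, was not called without FAK-WT sample 3, KMF sample 1 or KMF sample 2.

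Of 29 genes of the ATF4 and unfolded protein response 4 were called lower and none higher by limma and by limma-voom (3 higher at an unadjusted p under 0.05), 16 were lower at any fold, as were 23.5% of all tested genes, and the median was -0.32. Atf5 was 84, 80.9 and 93.4 FPKM in KMF, 23.2, 32.2 and 28.5 in FAK KO and 32.8, 34.1 and 27.8 in FAK-WT samples (log2 difference -1.45, SE 0.09, limma adjusted p = 5.77e-05). Chac1, which degrades glutathione, was 20.4, 21.7 and 22.6 FPKM in KMF, 4.75, 5.72 and 6.15 in FAK KO and 6.62, 8.26 and 5.93 in FAK-WT samples. The serine synthesis enzyme Phgdh was 109, 111 and 103 FPKM in KMF, 23.3, 25.2 and 24.4 in FAK KO and 52.1, 51.6 and 39.3 in FAK-WT samples. The mitochondrial folate enzyme Mthfd2 was 36.2, 33.9 and 40.5 FPKM in KMF, 15.1, 15.1 and 14.4 in FAK KO and 16.4, 15.7 and 11.3 in FAK-WT samples. Phgdh had thus moved back by 0.96 and Mthfd2 had not. In hypoxia and glycolysis 3 of 36 genes were lower and none higher by either tool (6 higher at an unadjusted p under 0.05). Ndufa4l2, a hypoxia-induced mitochondrial protein, was 419.7, 340.5 and 486 FPKM in KMF, 20.7, 19.4 and 7.26 in FAK KO and 49, 68.1 and 181 in FAK-WT samples (log2 difference -2.28, SE 0.44, limma adjusted p = 0.00528). Bnip3 was 29.98, 30.4 and 55.5 FPKM in KMF and 7.79, 10.3 and 25 in FAK-WT samples. Egln3 was 136, 126 and 157 FPKM in KMF and 50.1, 60.01 and 106 in FAK-WT samples. In all 3 genes FAK-WT sample 3 was the highest of its group, and over the list the FAK-WT samples lay at -0.20, 0.00 and 0.69 relative to KMF, so the positive list median of 0.23 was -0.12 without FAK-WT sample 3 and 0.02 without sample 3 of either line. Bnip3 and Egln3 were no longer called without FAK-WT sample 1, FAK-WT sample 2 or KMF sample 3. Among 30 cholesterol and fatty acid synthesis genes limma and limma-voom called none, with 7 higher and 12 lower at an unadjusted p under 0.05.

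Drug transport, glutathione and antioxidant genes gave 3 higher and 2 lower of 40, where 3.82% and 2.11% of all tested genes were. The 3 were all efflux transporters. Abcb1a (ENSMUSG00000040584, chromosome 5, 8660077 to 8748575) was 0.399, 0.638 and 0.431 FPKM in KMF, 4.83, 5.14 and 4.5 in FAK KO and 4.43, 4.33 and 4.49 in FAK-WT samples (log2 difference 2.96, SE 0.16, limma adjusted p = 3.49e-05). Its neighbour Abcb1b, the other mouse gene for P-glycoprotein, was 0.246, 0.33 and 0.32 FPKM in KMF, 1.68, 1.13 and 1.43 in FAK KO and 1.97, 2.31 and 2.23 in FAK-WT samples. Abcc3 was 0.612, 0.687 and 0.532 FPKM in KMF, 1.76, 1.99 and 1.95 in FAK KO and 2.16, 2.33 and 2.03 in FAK-WT samples, and it was no longer called with a pseudocount of 1. All 3 were raised in the knockout and did not return by 1 or more on the log2 scale, and Abcb1a and Abcb1b are similar in sequence, so fragments may be shared. The glutathione transferase genes Gstt1 and Gsta2 were lower, Gstt1 at 6.38, 5.64 and 4.44 FPKM in KMF and 2.15, 2.43 and 1.5 in FAK-WT samples and Gsta2 at 7.48, 7.62 and 9.54 FPKM in KMF and 3.24, 3.51 and 2.82 in FAK-WT samples.

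Of 38 DNA replication genes limma called none, nor did limma-voom, but 17 were lower and none higher at any fold (19 lower and 0 higher at an unadjusted p under 0.05), with a median of -0.26. Without FAK-WT sample 3 it was 14 lower and 3 higher at any fold, and without sample 3 of either line 20 and 4. Of 47 mitosis and cell cycle genes none was called by either tool, 13 were lower and 3 higher at any fold (19 lower and 3 higher at an unadjusted p under 0.05), and the median was -0.28. DNA damage repair gave none of 53 by either tool, 13 lower and 2 higher at any fold (19 lower and 3 higher at an unadjusted p under 0.05), and a median of -0.20. Over all tested genes 23.5% were lower and 18.2% higher at any fold. Against these shares, the cell cycle and repair lists had lower counts near 23.5% and higher counts below 18.2%. Without sample 3 of either line the cell cycle list had 21 lower and 6 higher, and the repair list 15 and 5. FAK-WT sample 3 lay lowest in these lists. Cell cycle medians relative to KMF were -0.11, -0.16 and -0.63 in the FAK-WT samples, beside -0.56 to -0.67 in FAK KO samples, and without sample 3 of either line the medians were -0.17 for DNA replication, -0.14 for the cell cycle and -0.10 for repair. Of 29 apoptosis and p53 target genes only Pmaip1, the BH3-only protein Noxa, was called, at 7.17, 5.89 and 7.3 FPKM in KMF, 4.49, 3.97 and 4.16 in FAK KO and 2.85, 2.83 and 2.37 in FAK-WT samples (log2 difference -1.3, adjusted p = 0.000188, limma). Of 9 Hox genes tested 5 were higher and 2 lower at any fold, with a median of 0.35, and limma-voom called 1 higher and 1 lower. The median was 0.36 without FAK-WT sample 3 and -0.06 without sample 3 of either line. By limma Hoxa6 was called lower, from 1.42 ± 0.478 to 0.606 ± 0.176 FPKM (SD, n = 3 each), and its call was lost without FAK-WT sample 1, FAK-WT sample 3 or KMF sample 2. The 12 mesothelial markers gave no call by limma or limma-voom, with 3 higher and 1 lower at an unadjusted p under 0.05.

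**Figure D4:**
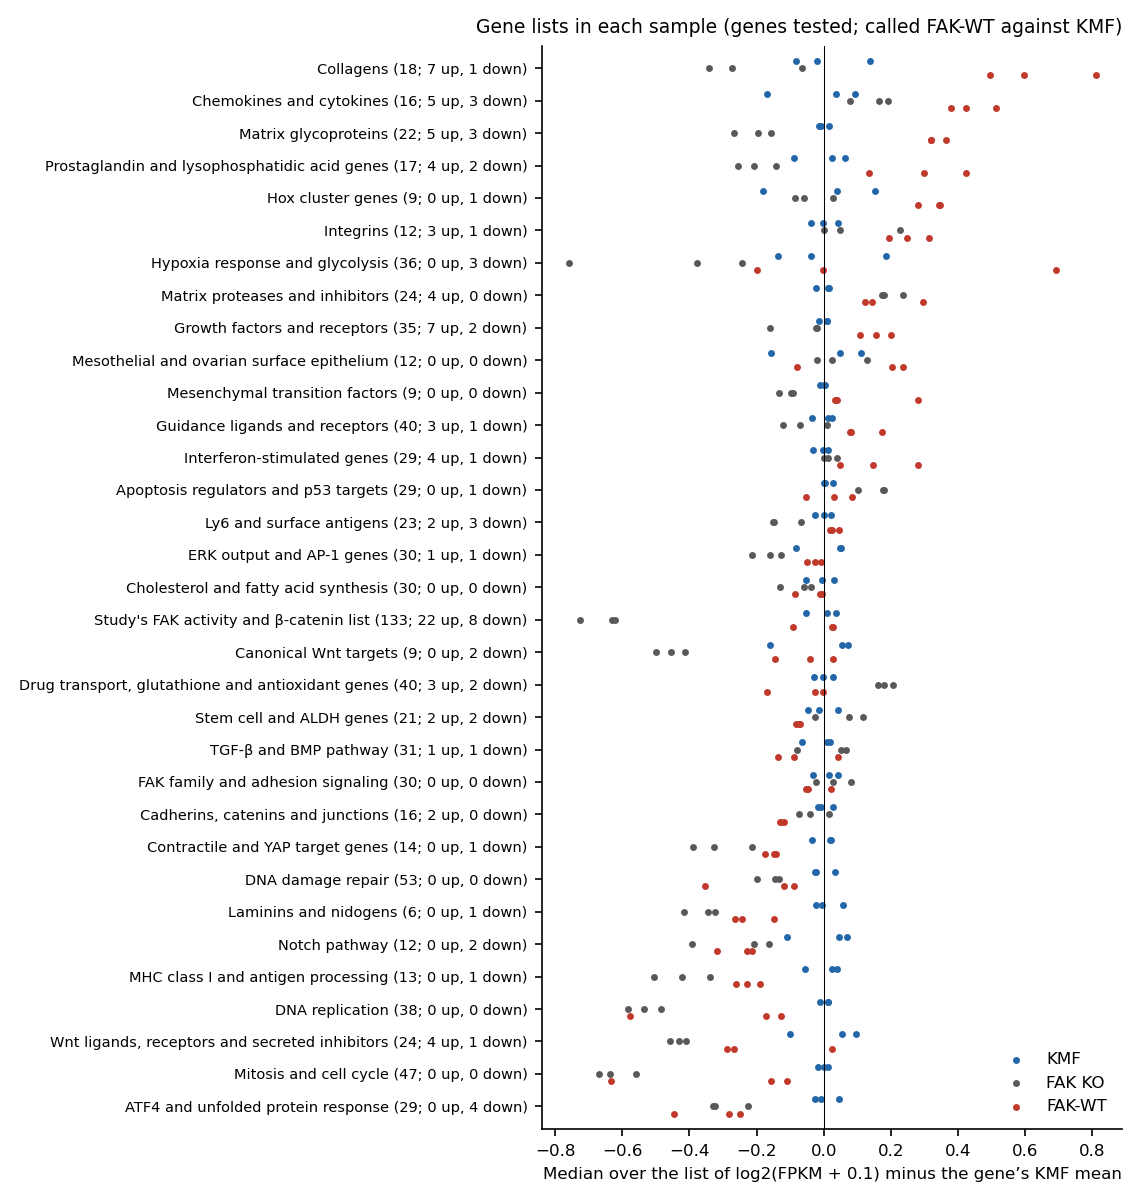
For each gene list, with the number tested and called in brackets, the median over its tested genes of log2(FPKM + 0.1) minus the gene's KMF mean is plotted for the 3 KMF (blue), 3 FAK KO (grey) and 3 FAK-WT (red) samples. Collagens lie at 0.49 to 0.81 in FAK-WT samples and ATF4 response genes below 0, and the hypoxia and cell cycle lists are spread by FAK-WT sample 3.

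Whole chromosomes were shifted between FAK-WT and KMF. Against the median of all other chromosomes, genes of chromosome 19 lay 0.33 higher on the log2 scale, those of chromosome 15 lay 0.27 higher and those of chromosome 6 lay 0.20 higher, while chromosome 1 lay 0.32 lower, chromosome 3 lay 0.31 lower and chromosome 9 lay 0.23 lower. The 3 FAK-WT samples gave 0.34, 0.33 and 0.35 for chromosome 19, 0.29, 0.29 and 0.26 for chromosome 15, and -0.33, -0.31 and -0.30 for chromosome 1, where the KMF samples lay between -0.02 and 0.01. Of 447 genes tested on chromosome 19, 88.1% lay above the median of the other chromosomes, and 35 were called higher against 4 lower. On chromosome 15, which carries Ptk2 and Myc, 81.0% of 479 genes did so, with 28 called higher and 9 lower. The FAK KO minus KMF shift was 0.23 for chromosome 19 and -0.11 for chromosome 15, and the FAK-WT minus FAK KO shift was 0.14 and 0.38. FAK-WT also differed from FAK KO by 0.24 for chromosome 17 and by -0.30 for chromosome 18, both of which lay within 0.06 of KMF in FAK-WT. Centring each chromosome on its own median left 445 higher and 232 lower calls, 416 and 215 of them among those above. The calls of greatest size on chromosome 19 were Glis3, a zinc-finger factor (3.39), Mamdc2 (3.1) and the non-coding E330013P04Rik (2.65), and on chromosome 15 Krt76 (3.73), Fam19a5 (2.97, and 2.30 without FAK-WT sample 3) and the matricellular gene Nov (2.73). On chromosome 3, where the median was lower, the leading calls Enpep, Ptger3 and the fatty acid binding gene Fabp4 (2.99) were nevertheless higher. On chromosome 9 they were Mmp13, Col5a3 and Mst1, the macrophage-stimulating ligand (3.35), and on chromosome 1 Pdcd1 (3.3), the cortisol-regenerating enzyme gene Hsd11b1 (2.72) and Col5a2. The number of DNA copies in these lines was not measured here. From exome sequencing the study called gains in parts of chromosomes 6 and 15 in KMF cells, relative to the ID8 cells they came from. It also reports exome variants of clone KT13, and it describes no exome data for FAK-WT cells. The relation of these gains to the shifts above was not tested.

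**Figure D5:**
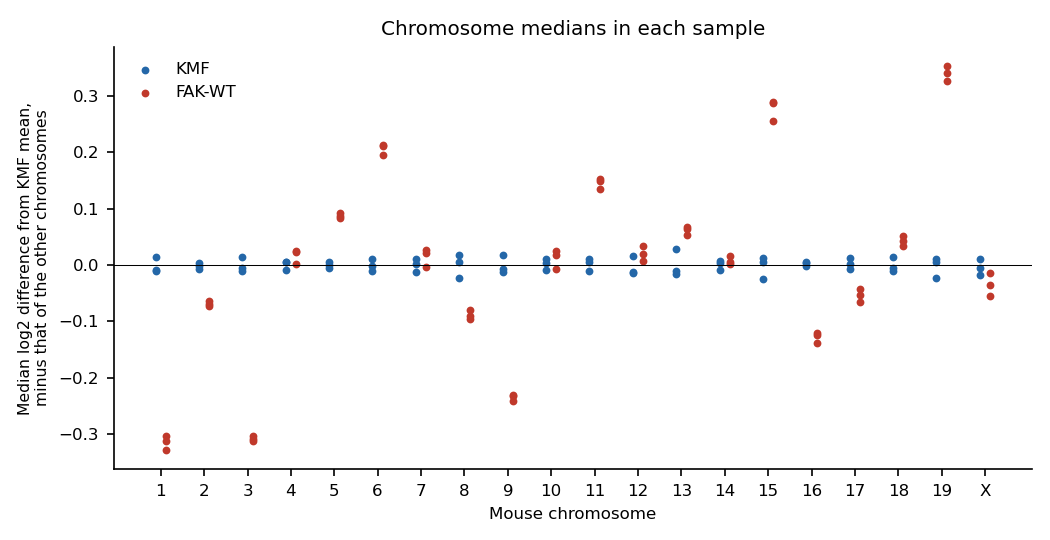
For each mouse chromosome, the median over its tested genes of the log2 difference from the KMF mean, minus that of the other chromosomes, is plotted for the 3 KMF (blue) and 3 FAK-WT (red) samples. The 3 FAK-WT samples lie together at each chromosome, above 0 on chromosomes 6, 11, 15 and 19 and below 0 on chromosomes 1, 3 and 9, while the KMF samples stay close to 0.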

How the data were processed

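RNA from tumorspheres of 5 mouse ovarian cancer lines was sequenced from poly(A)-selected libraries (NEBNext Ultra, 150-base paired ends). The authors deposited FPKM values, that is fragments per kilobase of gene scaled to sequencing depth, in 1 table for all 14 samples. The submitters' processing notes name CASAVA 1.8, STAR 2.5, DESeq2 and the mm10 build, while the methods name another aligner, so the aligner is uncertain. Columns holding the authors' own comparisons were not used. FPKM values times gene length gave whole fragments for 99.78% to 99.97% of values (tolerance 0.01), and columns of all samples could be mapped.

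FAK-WT was compared with KMF by limma 3.58.1 (R 4.3.3, intensity trend) on log2(FPKM + 0.1). Genes with a mean above 1 FPKM in either group were tested, and p-values were Benjamini-Hochberg adjusted over all of them. A count model was not the main test because the table holds FPKM, and limma-voom on recovered fragments was an alternative. Genes described in the text are the 12 greatest called differences in each direction whose values do not overlap, up to 4 called members in each direction of each of 35 gene lists (with further members where a result turned on them), the genes of the FAK and cadherin background, the 4 greatest in each direction of each position class and the 3 greatest on each chromosome described. A few genes that meet these rules are not reported here. The comparison, gene lists and tests were chosen with earlier results of these data known. Coordinates are those of the table (mm10), and of 11794 tested genes with an identifier in GENCODE M21, 11791 overlapped its position. The code was tested on simulated data. With 3 samples against 3, an exact permutation test of a single value cannot go below p = 0.1, so none was used.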

Additional observations from a re-analysis of the deposited data

How the results depend on the processing

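Of the 176 genes described by rule and tested, none changed direction, and 119 of their 170 calls were lost in no setting in which the gene was tested, where a mean above 5 FPKM left 98 of the 176. Genes named only among the other observations were not refitted. A pseudocount of 1 lost 40 of them and left 269 higher and 143 lower genes (200 not restored, 17 partly restored, 7 pushed further, 2 overshot), and a mean above 5 FPKM left 198 higher and 122 lower (153 not restored, 127 new). Overshot genes numbered 13 with a pseudocount of 0.01, 13 by limma-voom on recovered fragments and 12 without sample 3 of either line, a setting added after the data were seen. A log2 threshold of 0.5 gave 1019 higher and 975 lower genes (1340 new, 18 overshot), and no fold threshold 2151 and 2783 (549 not restored, 4241 new, 25 overshot). Leaving out 1 sample at a time gave 441 to 450 higher, 236 to 270 lower, 339 to 364 not restored, 233 to 273 new and 5 to 11 overshot genes, the 11 without KMF sample 2. Higher and lower genes numbered 446 and 247 with no filter, 481 and 232 with median-of-ratios scaling, 466 and 260 by limma-voom, 451 and 249 without the trend and 445 and 232 with chromosomes centred, and 1 fit of 5 groups moved both counts by at most 2. Centring chromosomes lost 13 calls, among them Cck, Foxred2, Gcnt3, Enpp2, Csrp1, Sema5a, Phgdh, Matn2, Gbp7, Itga5 and Aldh3b1. The causes of these changes were not tested, other than that the filter tests fewer genes.

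Samples with the same number in FAK-WT and KMF had correlated deviations of 0.023, 0.030 and 0.128, and FAK-WT sample 1 correlated best with KMF sample 2 (0.162). The labels do not say whether samples with the same number were handled together. Deviations from means of 3 samples cannot decide it. With the replicate number as a block 250 genes were lower and 2 more than in the main comparison were higher, 247 and 449 of them shared with it, with 357 not restored, 251 new and 8 overshot.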

Other observations

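The genes below were chosen after their values were seen and carry no test beyond the fit across all genes. Single transcription factor genes were called in both directions. Among higher genes, Sox18 rose by 2.39, Glis3 by 3.39 and Zfp503 by 3.46 on the log2 scale in FAK-WT over KMF. Among lower genes, Ebf4 was 13, 11.4 and 8.63 FPKM in KMF and 1.21, 1.21 and 2.57 in FAK-WT samples (log2 difference -2.72), with 0.858, 0.695 and 0.946 in FAK KO. Mecom, a zinc-finger factor of blood stem cells, was 1.7, 1.72 and 1.84 FPKM in KMF and 0.194, 0.275 and 0.285 in FAK-WT samples (-2.41). Gata2 fell by 1.67 and Mycn by 1.59, both with FAK KO at the lower level. Ebf3 was 2.65, 2.43 and 2.54 FPKM in KMF, 1.57, 1.62 and 1.56 in FAK KO and 0.855, 0.92 and 0.926 in FAK-WT samples, and Runx1 16.2, 16.1 and 15, 9.88, 9.03 and 8.92 and 7.33, 7.63 and 8.55 FPKM, so that both went on falling after re-expression, and Runx1 lay at the threshold of a call.

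Vitamin A handling genes changed in both directions. The cellular retinol-binding protein gene Rbp2 rose by 1.95, and Rdh10, which makes retinal from retinol, was 11.4, 11.1 and 9.8 FPKM in KMF, 12.3, 11.9 and 12.1 in FAK KO and 22.7, 24.3 and 21.6 in FAK-WT samples. Retsat, a retinol saturase, rose by 1.17, while Rbp7 and Aldh1a1 were lower, as given above. Among complement genes, C3 was 60.9, 69.1 and 60.5 FPKM in KMF, 101, 109 and 95.2 in FAK KO and 321, 324 and 281 in FAK-WT samples (log2 difference 2.28, limma adjusted p = 1e-05), and C4b 6.76, 7.62 and 7.52, 30.5, 32.6 and 33.5 and 24.1, 27.1 and 25.9 FPKM, whereas Hc, which encodes C5, fell by 3.03 to 0.0369, 0.0342 and 0.0351 FPKM. The adhesion receptor gene Icam1 was 5.42, 5.94 and 5.3 FPKM in KMF, 21.5, 24.5 and 24 in FAK KO and 27.3, 29.2 and 26 in FAK-WT samples. The X-linked homeobox gene Rhox5, normally active in testis and ovary, was 2.37, 2.04 and 1.69 FPKM in KMF, 13.3, 15.7 and 14.2 in FAK KO and 24.4, 26.5 and 18.9 in FAK-WT samples (log2 difference 3.45), and its cluster neighbour Rhox2h 0.309, 0.23 and 0.109, 1.02, 0.788 and 0.688 and 3.66, 3.63 and 2.62 FPKM.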
